A study of Glycine max with 11 samples.

Results

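Isoflavone synthesis in maturing soybean seeds was followed through 5 genes, chosen by identifier among the 56044 genes of the series. They are the isoflavone synthases IFS1 (Glyma.07G202300.1) and IFS2 (Glyma.13G173500.1), the chalcone synthases CHS7 (Glyma.01G228700.1) and CHS8 (Glyma.11G011500.1), and the regulator MYB176 (Glyma.05G032200.1). By their identifiers they lie on chromosomes 7, 13, 1, 11 and 5. RefSeq's soybean gene table holds the same 5 symbols on the same chromosomes, and it lists IFS2 as another name of IFS1 and IFS1 as another name of IFS2, so the names here follow the identifiers above.

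Whole seeds of the field-grown cultivar BRS284 gave 11 RNA-seq libraries. Seeds harvested at stage 7.2 and then dried rapidly at low humidity gave 2 libraries, and freshly harvested seeds gave 9. No seeds held off the plant equally long without drying were sequenced. Water loss and the time and conditions off the plant therefore cannot be told apart, and drying here means the whole treatment. Stages 7.2 and 9 had a pair of fresh libraries, while stages 7.1, 7.3, 8.1, 8.2 and 8.3 had 1 apiece. Stages are phenological stages judged from leaves, pods and seeds, from late seed filling at 7.1 to the dry mature seed at 9. Seeds of a stage came from many plants of the same crop, and no source used here says which plants made up a replicate, so p-values measure the spread between these libraries only. Where a transcript is lower in whole seeds, fewer cells of a type and less RNA per cell cannot be told apart.

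Isoflavones are legume defence and signalling compounds that soybean stores in its seeds. Phenylalanine ammonia-lyase opens the phenylpropanoid pathway, chalcone synthase builds the flavonoid skeleton, and chalcone isomerase closes its ring. Isoflavone synthase, a cytochrome P450 enzyme, then moves the aryl group and so commits the flavanone to isoflavones, and 2-hydroxyisoflavanone dehydratase completes the isoflavone. MYB176 is a soybean transcription factor known to act on the CHS8 promoter.

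The libraries held 12881662 to 60626937 counts, both extremes from dried seeds, and 34689 to 41253 genes with a count. The 5 genes together took between 0.0393% (stage 7.1) and 0.133% (stage 7.3) of a library's counts. The stage 7.1 library stood apart: a list of 8 genes taken as seed markers took 20.7% of its counts, against 0.675% to 2.91% in the other libraries, and none of the 8 was at 0 in any library. The sources used here name only lectin (Glyma.02G012600) among them, a carbohydrate-binding seed protein at 222640 normalized counts at stage 7.1 and 2139 to 9326 elsewhere. Levels are normalized counts, that is counts divided by a size factor for each library, and they are not corrected for transcript length, so they are compared between libraries and not between genes.

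**Figure D1:**
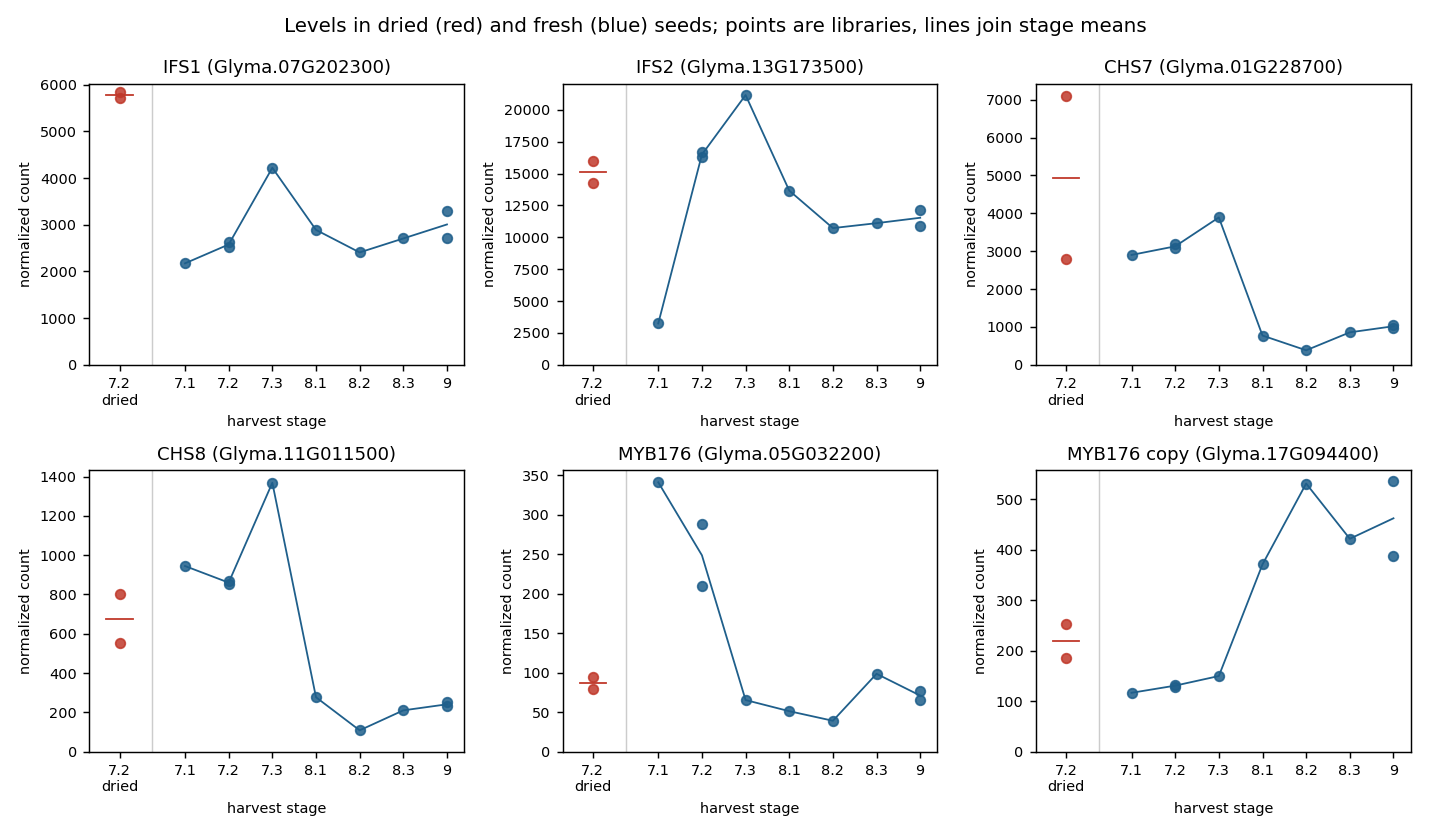
Normalized counts (vertical axis, from 0) of the 5 genes and of Glyma.17G094400, the other gene named MYB176, by harvest stage (horizontal axis). Red points are the 2 dried stage 7.2 libraries with a bar at their mean, blue points are fresh libraries and blue lines join the stage means. IFS1 is highest in dried seeds, CHS7 and CHS8 are low from stage 8.1 on, and MYB176 and Glyma.17G094400 run in opposite directions.

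IFS1 was higher in seeds dried at stage 7.2 than in fresh seeds of the same stage. Its normalized count was 5725 and 5841 in the dried libraries, against 2640 and 2516 in the fresh stage 7.2 libraries. The dried libraries lay above all 9 fresh ones, and how many of all genes did so was not counted. The mean was 5783 ± 82.03 in dried and 2578 ± 87.4 in fresh seeds (SD, n = 2 each), a 2.24-fold difference. With edgeR's quasi-likelihood test, IFS1 rose by 1.18 on the log2 scale (SE 0.21, adjusted p = 0.00893). Genes were called where the change was at least 2-fold and the Benjamini-Hochberg adjusted p was under 0.05. Of all 30132 genes tested between dried and fresh seeds, 15% were called higher and 17.9% lower. Without either fresh stage 7.2 replicate the log2 change of IFS1 was 1.22 or 1.14, but the call was lost (adjusted p = 0.136 and 0.158, edgeR). Scaled by library totals, IFS1 was 1.58-fold higher in dried than in fresh seeds, under the 2-fold threshold.

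During natural maturation IFS1 stayed in a narrow range. In stage order, its normalized count was 2174 (7.1), 2640 and 2516 (7.2), 4222 (7.3), 2891 (8.1), 2408 (8.2), 2707 (8.3), and 3291 and 2724 (9). Stage 7.3 was the highest and stage 7.1 the lowest, 1.94-fold apart. Ordered by level, the stages ran 7.3, 9, 8.1, 8.3, 7.2, 8.2 and 7.1, and every pair of neighbours below stage 7.3 differed by no more than the stage 9 replicates did from each other (1.21-fold). Stage 9 seeds did not pass the test against fresh stage 7.2 seeds (log2 change 0.20, SE 0.11, adjusted p = 0.0991, edgeR). Against dried stage 7.2 seeds, stage 9 seeds were lower by slightly less than the 2-fold threshold (log2 change -0.96, SE 0.20, adjusted p = 0.0470, edgeR).

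IFS2 gave no call for drying. It stood at 14273 and 16002 in dried stage 7.2 seeds, against 16652 and 16330 in fresh ones. Both dried values were below both fresh ones, but the means differed by less than the dried replicates did from each other. The log2 change was -0.10 (SE 0.25, adjusted p = 0.756, edgeR). The marked step of IFS2 came at the end of seed filling: a mean of 16491 ± 227 at stage 7.2 (SD, n = 2), against 3245 at stage 7.1, a 5.08-fold difference. Stage 7.1 has a single library, so this step has no test. IFS2 then reached 21156 at stage 7.3 and stood at 13663, 10722 and 11109 at stages 8.1, 8.2 and 8.3, and at 12146 and 10919 at stage 9.

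In order of level the stages of IFS2 ran 7.3, 7.2, 8.1, 9, 8.3, 8.2 and 7.1. Among neighbours in that order, stages 9 and 8.3 and stages 8.3 and 8.2 differed by less than the stage 9 replicates did (1.11-fold), and the other 4 pairs by more. Stage 9 seeds had 11533 ± 868 and fresh stage 7.2 seeds 16491 ± 227 (SD, n = 2 each). This decrease passed the adjusted p but not the 2-fold threshold (log2 change -0.53, SE 0.11, adjusted p = 0.00117, edgeR). Over stages 8.1 to 9 against stages 7.1 to 7.3, the log2 change of IFS2 was -0.34 (SE 0.44, adjusted p = 0.541, edgeR). Without the stage 7.1 library it was -0.68 with an adjusted p of 0.00571.

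The IFS2 to IFS1 ratio of counts within a library does not depend on library size. It was 2.49 and 2.74 in dried stage 7.2 seeds, against 6.31 and 6.49 in fresh ones, and the groups did not overlap. How many of all gene pairs were separated in this way was not counted. IFS2 took 71.4% (exact 95% interval 70.5 to 72.2) and 73.3% (72.8 to 73.7) of the pair's counts in the dried libraries, against 86.3% (85.9 to 86.7) and 86.6% (86.2 to 87.0) in the fresh ones. These intervals cover counting error only, and 2 against 2 libraries cannot give an exact permutation p below 0.333, so the drying difference of the ratio was not tested.

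In the other fresh libraries the IFS2 to IFS1 ratio was 1.49 (stage 7.1), 5.01 (7.3), 4.73 (8.1), 4.45 (8.2), 4.10 (8.3), and 3.69 and 4.01 (9). From stage 7.2 on, every later stage had a lower ratio than the one before it, taking stages by their mean. Stages 8.1 to 9 and stages 7.1 to 7.3 had the same geometric mean, 4.18 each (exact permutation test, two-sided, p = 1.0, adjusted p = 1.0 over 3 ratios). That result rested on stage 7.1: without that library the late stages were lower by 0.50 on the log2 scale (exact permutation p = 0.0179, adjusted p = 0.0268). This p is the smallest that the remaining libraries can give. The test treats libraries as interchangeable, but successive stages are not independent, so its p-values only describe this split. IFS1 and IFS2 are close copies. The library totals are reads described as unambiguously mapped, and no source used here says how that was decided for reads that match both copies, so the split between them is uncertain. With the counts of both copies summed, the dried against fresh log2 change was 0.15 (adjusted p = 0.651, edgeR) and the call of IFS1 was lost.

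**Figure D2:**
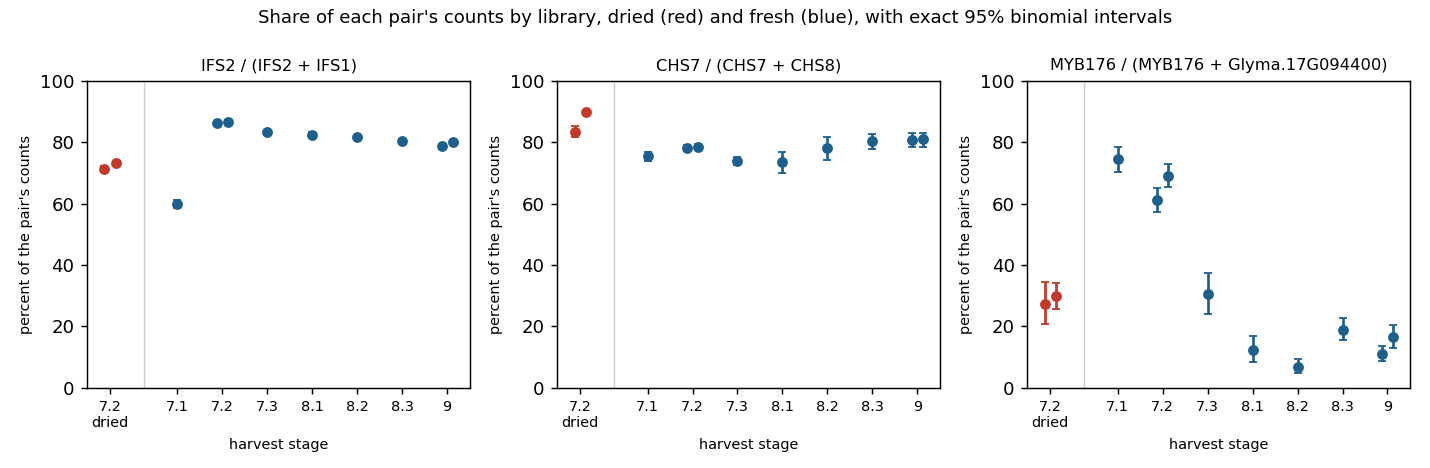
Share of a pair's counts (percent, vertical axis) taken by IFS2, CHS7 and MYB176 in each library by harvest stage, dried in red and fresh in blue, with exact 95% binomial intervals for counting error. The dried libraries have a lower IFS2 share and a higher CHS7 share than the fresh stage 7.2 libraries, and the MYB176 share falls to 6.84% at stage 8.2.

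CHS7 and CHS8 encode the enzyme that makes chalcone, the entry compound of all flavonoids. Both were several-fold lower from stage 8.1 on than up to stage 7.3. In fresh seeds CHS7 gave normalized counts of 2901 (stage 7.1), 3072 and 3185 (7.2), 3891 (7.3), 772 (8.1), 383 (8.2), 857 (8.3), and 974 and 1063 (9). CHS8 gave 945 (stage 7.1), 851 and 869 (7.2), 1369 (7.3), 277 (8.1), 108 (8.2), 210 (8.3), and 231 and 250 (9). Every library of stages 8.1 to 9 lay below every fresh library of stages 7.1 to 7.3, for CHS7 as for CHS8. Such a separation held for 19.8% of the 27250 genes tested in this comparison.

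Over stages 8.1 to 9 against stages 7.1 to 7.3, CHS7 fell by 2.07 (SE 0.27, adjusted p = 0.000764) and CHS8 by 2.28 on the log2 scale (SE 0.26, adjusted p = 0.000628, edgeR). MYB176 fell as well, so 3 of the 5 genes were called lower, where 22.4% of all genes tested were called lower and 13.9% higher. The median log2 change was -1.85 over the 5 genes and -0.10 over all genes tested. Libraries of several stages stand together in each of these groups, so the spread in this test includes change between stages. The study itself reports a transcriptional switch between stages 7.3 and 8.1, found in these same libraries. The calls of CHS7, CHS8 and MYB176 held without each of the 9 libraries in turn.

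The comparison of the replicated fresh stages gave the same 3 calls. CHS7 averaged 1019 ± 62.6 at stage 9 and 3128 ± 80.3 at stage 7.2 (SD, n = 2 each), and fell by 1.64 on the log2 scale (SE 0.09, adjusted p = 3.4e-08, edgeR). CHS8 averaged 241 ± 13.96 at stage 9 and 860 ± 12.8 at stage 7.2 and fell by 1.86 (SE 0.10, adjusted p = 2.05e-08, edgeR). Between these stages 27.1% of 29707 genes were called lower and 17.8% higher. The median log2 change was -1.64 over the 5 genes and -0.10 over all genes tested. This comparison and the one of all fresh stages share the stage 7.2 and stage 9 libraries.

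Stage 8.2 was the low point of both chalcone synthase genes. It was also the lowest fresh stage for MYB176, chalcone isomerase 1 (146 normalized counts) and 2-hydroxyisoflavanone dehydratase (249), but not for phenylalanine ammonia-lyase, IFS1 or IFS2. CHS7 changed by -1.01 on the log2 scale between stages 8.1 and 8.2 and by 1.16 between stages 8.2 and 8.3, and CHS8 by -1.36 and 0.96. Each of these stages has a single library, so stage and library cannot be told apart. The fresh replicates of CHS7 differed by at most 1.09-fold, and in the order of stages only 7.2 and 7.1 were as close as that. For CHS8 no neighbouring stages were as close as its fresh replicates (1.09-fold). The dried replicates differed more. For CHS7 they were 2.53-fold apart, against steps of 2.02-fold into and 2.24-fold out of stage 8.2. For CHS8 they were 1.45-fold apart, against steps of 2.56-fold and 1.94-fold. The lowest stage was 10.2-fold below the highest for CHS7 and 12.7-fold for CHS8.

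Rapid drying gave no call for either chalcone synthase gene, and the dried replicates disagreed. CHS7 had 2799 and 7088 normalized counts in the dried libraries, against 3072 and 3185 in the fresh stage 7.2 libraries. The dried values lay on either side of the fresh ones, and the log2 change was 0.68 (SE 0.44, adjusted p = 0.249, edgeR). Without dried replicate 1 the log2 change was 1.21 (adjusted p = 2.7e-06), and without dried replicate 2 it was -0.14. CHS8 had 552 and 802 in the dried libraries, against 851 and 869 in the fresh ones. Both dried values were lower, with a log2 change of -0.32 (SE 0.24, adjusted p = 0.311, edgeR). Without dried replicate 1 it was -0.07, and without dried replicate 2 it was -0.62 (adjusted p = 0.00214), under 2-fold. The higher value of both genes came from the deeper dried library, which held 60626937 counts against 12881662. With that library thinned at random to the depth of the other, CHS7 gave a log2 change of 0.66 (adjusted p = 0.263, edgeR). Thinning keeps each gene's expected share of the counts, so it cannot show whether depth had a part in the disagreement.

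The mature seeds were also set against the dried immature ones. CHS7 averaged 1019 ± 62.6 in stage 9 and 4944 ± 3033 in dried stage 7.2 seeds (SD, n = 2 each), and fell by 2.30 on the log2 scale (SE 0.46, adjusted p = 0.0449, edgeR). CHS8 averaged 241 ± 13.96 in stage 9 and 677 ± 177 in dried seeds and fell by 1.52 (SE 0.24, adjusted p = 0.0321, edgeR). These 2 of the 5 genes were called lower, where 5.02% of 25797 genes were called lower and 2.76% higher. The median log2 change was -0.96 over the 5 genes and -0.05 over all genes tested. The study lists CHS7 and CHS8 among its own genes for this comparison, on these same libraries, so their direction here is not independent evidence. Without either stage 9 replicate the log2 changes stayed between -2.34 and -1.45, but both calls were lost (adjusted p = 0.186 to 0.265). Without dried replicate 2 the change of CHS7 was -1.48 and without dried replicate 1 it was -2.80, both called. All groups here also serve in the comparisons above.

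The CHS7 to CHS8 ratio was 5.07 and 8.84 in dried stage 7.2 seeds, against 3.61 and 3.66 in fresh ones, and the groups did not overlap. The drying difference of this ratio was not tested, since 2 against 2 libraries cannot give an exact permutation p below 0.333. The share of all gene pairs separated in this way was not counted, and the dried CHS7 levels were themselves 2.53-fold apart. The other fresh libraries gave 3.07 (stage 7.1), 2.84 (7.3), 2.79 (8.1), 3.55 (8.2), 4.09 (8.3), and 4.22 and 4.24 (9). The geometric mean was 3.73 in stages 8.1 to 9 and 3.28 in stages 7.1 to 7.3, and the difference of 0.19 on the log2 scale did not pass the test (exact permutation test, two-sided, p = 0.238, adjusted p = 0.357 over 3 ratios). CHS7 and CHS8 are close copies as well. With both summed, the fall from fresh stage 7.2 remained at stage 9 (log2 change -1.68, adjusted p = 3.27e-08, edgeR).

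**Figure D3:**
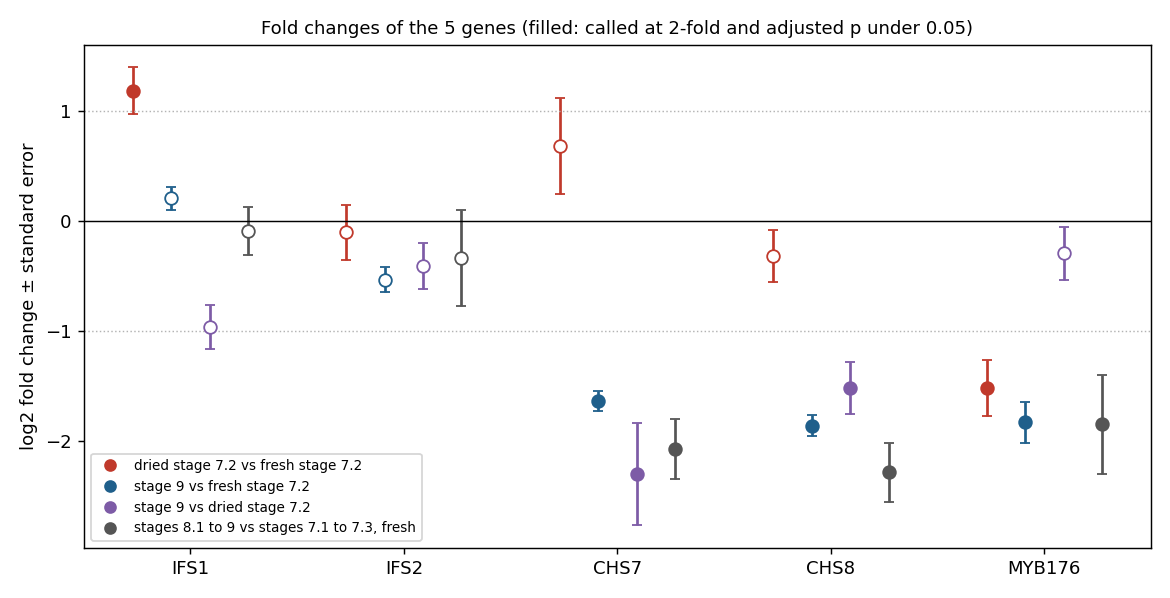
Log2 fold changes (vertical axis) with standard errors from edgeR for the 5 genes in 4 comparisons, drawn filled where the gene was called and open where it was not. Dotted lines mark 2-fold. IFS1 is called only for drying (1.18), CHS7 and CHS8 in the 3 comparisons with later stages, and MYB176 in the 3 comparisons against fresh early seeds.

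MYB176 was lower in dried than in fresh stage 7.2 seeds. It had 94.7 and 78.7 normalized counts in the dried libraries, from 48 and 138 raw counts, against 209 and 288 in the fresh libraries, from 370 and 422. The groups did not overlap, but the share of all genes separated in this way was not counted. The mean was 86.7 ± 11.3 in dried and 249 ± 55.8 in fresh seeds (SD, n = 2 each), and MYB176 fell by 1.52 on the log2 scale (SE 0.25, adjusted p = 0.00766, edgeR). It was the only gene of the 5 called lower with drying and IFS1 the only one called higher. Of all genes tested, 17.9% were called lower and 15% higher, so a single gene of the 5 in either direction is close to those shares. The median log2 change of the 5 was -0.10, against -0.05 over all genes tested. Without fresh replicate 2 the MYB176 change was -1.27 and no longer called (adjusted p = 0.0598).

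In natural maturation MYB176 was highest at stages 7.1 and 7.2. Its normalized counts were 341 (stage 7.1), 209 and 288 (7.2), 65.3 (7.3), 51.2 (8.1), 39.0 (8.2), 98.5 (8.3), and 64.9 and 77.0 (9). The step between stages 7.2 and 7.3, -1.93 on the log2 scale with a single library at 7.3, came while CHS7, CHS8 and both isoflavone synthase genes were at their highest fresh levels at stage 7.3. The dried stage 7.2 libraries lay within the range of the fresh libraries of stages 7.3 to 9. Stages 7.1 and 7.2 were within the spread of the stage 7.2 replicates (1.38-fold), and so were neighbours among stages 9, 7.3, 8.1 and 8.2. Stage 8.2 was 8.75-fold below stage 7.1.

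At stage 9 MYB176 averaged 70.9 ± 8.55, against 249 ± 55.8 at fresh stage 7.2 (SD, n = 2 each), and fell by 1.83 on the log2 scale (SE 0.18, adjusted p = 3.43e-06, edgeR). Over stages 8.1 to 9 against stages 7.1 to 7.3 it fell by 1.85 (SE 0.45, adjusted p = 0.00789, edgeR). These groups overlapped, since the stage 8.3 library and stage 9 replicate 2 lay above the stage 7.3 library. Stage 9 did not pass the test against dried stage 7.2 seeds (log2 change -0.29, SE 0.24, adjusted p = 0.441, edgeR).

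Glyma.17G094400, to which the study's tables also give the name MYB176, ran the other way. It had 252 and 185 normalized counts in dried stage 7.2 seeds, against 133 and 128 in fresh ones. The dried values were higher, but the log2 change of 0.75 stayed under 2-fold (SE 0.23, adjusted p = 0.0446, edgeR). The other fresh libraries gave 116 (stage 7.1), 150 (7.3), 371 (8.1), 531 (8.2), 422 (8.3), and 536 and 388 (9). It rose at stage 9 against fresh stage 7.2 by 1.81 on the log2 scale (SE 0.15, adjusted p = 6.99e-07), and over stages 8.1 to 9 by 1.71 (SE 0.17, adjusted p = 0.000601, edgeR).

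The MYB176 to Glyma.17G094400 ratio was 0.375 and 0.426 in dried stage 7.2 seeds, against 1.57 and 2.24 in fresh ones. In the other fresh libraries it was 2.93 (stage 7.1), 0.436 (7.3), 0.138 (8.1), 0.0734 (8.2), 0.234 (8.3), and 0.121 and 0.198 (9). All 5 libraries of stages 8.1 to 9 lay below all 4 of stages 7.1 to 7.3, but the share of all gene pairs so separated was not counted. The geometric mean ratio was 0.143 in the late and 1.46 in the early stages, a difference of -3.35 on the log2 scale (exact permutation test, two-sided, p = 0.00794, the smallest these libraries can give, adjusted p = 0.0238 over 3 ratios). With replicates averaged to 1 value per stage it was -3.26 (exact permutation p = 0.0286, adjusted p = 0.0857), again the smallest p that design allows. The test treats libraries as interchangeable, but successive stages are not independent. Both genes had already been called in opposite directions over the same split of stages, so the ratio test is not separate evidence. Glyma.17G094400 also stands in the study's list for stage 9 against dried seeds, chosen on these libraries.

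Across the libraries CHS7 and CHS8 moved together (Pearson's r = 0.931 over 11 libraries and 0.984 over the 9 fresh ones, of log2 normalized counts). These and the next values are descriptions, since successive stages are not independent. IFS2 and CHS8 gave r = 0.0679 over the 9 fresh libraries and 0.95 over the 8 without stage 7.1, where IFS2 was low and CHS8 high. CHS8 and MYB176 gave r = 0.677 over the fresh libraries, and CHS8 and Glyma.17G094400 gave r = -0.948. IFS1 and MYB176 gave r = -0.481.

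The other pathway genes were taken from those that the study's supplementary tables name, 16 in all, of which 7 stand in its list for stage 9 against dried seeds and 9 in its list of variable genes. Both lists were chosen on these libraries, so the directions are not independent evidence. Between dried and fresh stage 7.2 seeds 12 of the 16 passed the filter on low counts, 1 was called higher and 3 lower, where 15% of all genes tested were called higher and 17.9% lower. The median log2 change was -0.27, against -0.05 over all genes. Between stage 9 and fresh stage 7.2 seeds 12 were tested, 1 was called higher and 10 lower (all genes: 17.8% and 27.1%), with a median of -1.85, against -0.10 over all genes. Over stages 8.1 to 9 against stages 7.1 to 7.3, 11 were tested, 1 was called higher and 9 lower (all genes: 13.9% and 22.4%), with a median of -2.003, against -0.10. In stage 9 against dried seeds 4 of 10 were called lower (all genes: 5.02%), with a median of -1.66, against -0.05. Genes with 3 or fewer counts in every dried or later library occurred in the first 3 of these comparisons, and setting them to their bound moved none of those medians over the list. The single gene called higher at the later stages was Glyma.17G094400.

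Among the upstream steps, the phenylalanine ammonia-lyase gene Glyma.13G145000 was the only one called higher with drying. It had 321 and 424 normalized counts in dried seeds, against 116 and 152 in fresh stage 7.2 seeds, and rose by 1.504 on the log2 scale (SE 0.25, adjusted p = 0.00743, edgeR). The fresh stage 7.1 library, at 796, was above both dried ones. At stage 9 its log2 change of -0.48 (adjusted p = 0.0273, edgeR) stayed under 2-fold. Chalcone isomerase 1 (Glyma.06G143000) fell by 2.30 at stage 9 against fresh stage 7.2 (SE 0.11, adjusted p = 1.22e-08, edgeR). In dried seeds it had 458 and 1381, against 1061 and 1055 in fresh ones, so its dried replicates straddled the fresh values as those of CHS7 did. The 4-coumarate--CoA ligase 2 gene Glyma.01G232400, whose enzyme activates coumarate for chalcone synthase, was called lower with drying (log2 change -2.33, SE 0.51, adjusted p = 0.0163, edgeR). It had 3 and 4 raw counts in dried seeds, against 30 and 24 in fresh stage 7.2 seeds, and 1 and 0 at stage 9.

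Among the downstream steps, 2-hydroxyisoflavanone dehydratase (Glyma.01G239500), which acts directly after isoflavone synthase, had 465 and 660 normalized counts in dried seeds, against 946 and 1278 in fresh stage 7.2 seeds. Its log2 change of -0.96 fell short of 2-fold (SE 0.26, adjusted p = 0.0321, edgeR). At stage 9 it had 315 and 302 and fell by 1.86 against fresh stage 7.2 (SE 0.13, adjusted p = 2.16e-07, edgeR). Isoflavone reductase homolog 2 (Glyma.04G012300) had 1518 and 1514 at stage 9, against 5054 and 5685 at fresh stage 7.2, and fell by 1.84 (SE 0.10, adjusted p = 2.48e-08, edgeR). Isoflavone reductase homolog 1 (Glyma.01G172800) had 252 raw counts at stage 7.1 and at most 12 in any other library, and was not tested. Both homologs are placed among the downstream steps by name alone, and what their enzymes do was not tested.

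In the branches that lead to flavonols and anthocyanins, 3 genes named dihydroflavonol-4-reductase were among the 4 tested. Glyma.19G254600 stood at 160 and 171 normalized counts at stage 9, against 510 and 641 at fresh stage 7.2, and fell by 1.82 (SE 0.13, adjusted p = 2.16e-07, edgeR). Glyma.01G017100 and Glyma.01G080700 fell by 1.75 and 1.87 in the same comparison. Glyma.01G017100 also fell with drying, by 1.12 (SE 0.22, adjusted p = 0.0114, edgeR), with 73.0 and 69.0 in dried seeds, against 163 and 148 in fresh ones.

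**Figure D4:**
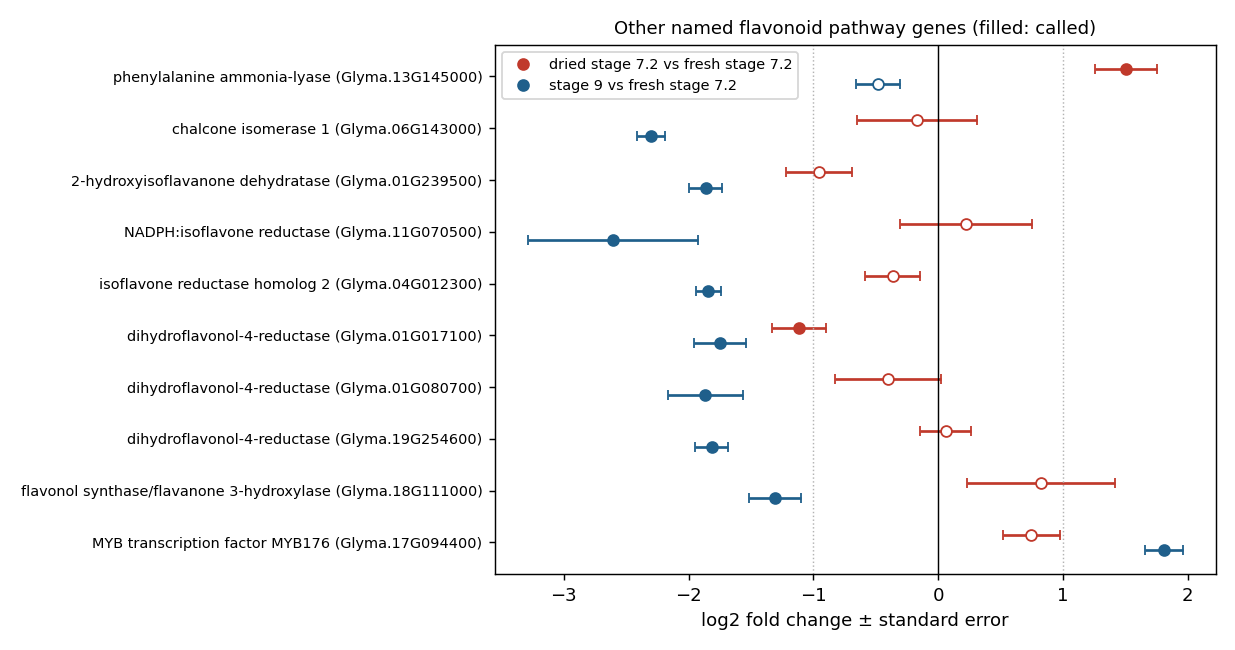
Log2 fold changes (horizontal axis) with standard errors from edgeR of 10 other named flavonoid pathway genes, for dried against fresh stage 7.2 (red) and stage 9 against fresh stage 7.2 (blue), filled where called. The 2 tested genes with 3 or fewer counts in every stage 9 library are not drawn. Phenylalanine ammonia-lyase is called higher with drying (1.504), while 8 of the 10 genes are called lower at stage 9.

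The genes most like each of the 5 in pattern were sought by Pearson's r of log2(normalized count + 1) over the 11 libraries, leaving out those whose mean level was under 100 normalized counts. Most have no name in the sources used here. MYB176 was most like Glyma.02G116100 (r = 0.987), Glyma.19G172700 (0.972) and Glyma.06G124900 (0.966). CHS8 was most like Glyma.07G097700 (r = 0.973), Glyma.09G172200 (0.972) and Glyma.19G078400 (0.971), and CHS7 like Glyma.15G244300 (0.977), Glyma.17G222000 (0.975) and Glyma.20G216100 (0.973). IFS2 was most like Glyma.13G173400 (r = 0.985), the identifier just before its own, Glyma.12G147300 (0.985) and Glyma.17G022900 (0.981). IFS1 was most like Glyma.19G118700 (r = 0.968), Glyma.06G186200, named UVI1 (0.967), and Glyma.18G166400 (0.954). How many genes exceeded r = 0.95 differed, with 3 for IFS1, 7 for MYB176, 12 for CHS7, 17 for CHS8 and 95 for IFS2. The choice of the 3 depends on the measure: by Spearman's rho none of the 5 kept any of its 3.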

How the data were processed

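Whole-seed RNA of 11 libraries was sequenced. After trimming, the authors aligned single-end reads to the Williams 82 genome with Bowtie2 and deposited raw counts, 1 transcript per gene. Totals are reads they describe as unambiguously mapped, and the counting program is not given in the sources used here. A row without a gene name held 0 counts (0%) and was left out. Libraries were grouped by the sample labels.

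Comparisons used R 4.3.3 and edgeR 4.0.16 (with limma 3.58.1): TMM, filterByExpr, the two-sided quasi-likelihood test on the libraries compared, no replicate term, p adjusted by Benjamini-Hochberg over all genes tested. Size factors for levels came from DESeq2 1.42.0 and all 11 libraries. Ratios (0.5 added to each count) were tested by exact permutation, with 5 against 4 libraries, in Python 3.11.15 with scipy 1.17.1, numpy 2.4.6 and pandas 2.3.3. Figures used matplotlib 3.10.9. The fits were tested on simulated data.

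The 5 genes were given by identifier, and the members and lists were chosen with earlier results of these data known. Named are these 5, the genes of highest mean normalized count in each pathway list (and some further ones chosen after their values were seen), and the 3 most alike genes of each member. Of 55 pathway identifiers written down beforehand, 7 had a name in the study's tables; the others were not used, and 9 were added by product name after the files were read. None of the identifiers matched RefSeq's table by identifier. Alternatives were other normalizations, filters, thresholds and tests, summed copies, a replicate block and leaving out each library. The study gives the fresh and the dried stage 7.2 replicates the same letters, a and b. Same-numbered replicates did not deviate together (correlations 0.035 to 0.056). That cannot show that they are unpaired, so whether the numbers pair the libraries is not known.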

Additional observations from a re-analysis of the deposited data

Results flagged for a closer look

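The stage 7.1 library gave the lowest IFS2 level of the 4 fresh libraries of stages 7.1 to 7.3, at 3245 normalized counts. The other libraries of those stages had 16330 to 21156. On the log2 scale, the gap of the stage 7.1 library to the nearest exceeded Dixon's limit for 4 values (Q = 0.862, limit 0.829). The 4 libraries come from different stages, so this gap includes change between stages. Of 18 such groups of values, this was the only one with a gap over the limit, and chance gives about 1 in 20. The stage 7.1 library is the only one of its stage, and the 8 seed marker genes took 20.7% of its counts. Their part in the IFS2 value was not tested.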

How the results depend on the processing

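Of the calls of the 5 genes, those of CHS7, CHS8 and MYB176 held under every alternative run in stage 9 against fresh stage 7.2 and in stages 8.1 to 9 against 7.1 to 7.3. In dried against fresh seeds, genes called higher numbered 2926 and lower 2994 with at least 10 counts in every library, and 2563 and 2301 at an adjusted p of 0.01, against 4507 and 5387; leaving out a library gave 2263 to 6095 and 2594 to 6931, and 0 to 2 of the 5 genes higher and 0 to 1 lower. The sum of both copies gave 0.15 for IFS1 and IFS2 and 0.52 for CHS7 and CHS8, opposite in sign to IFS2 and CHS8 alone; without single libraries CHS7 gave -0.14 (without dried replicate 2) to 1.21. In stage 9 against fresh stage 7.2, 10231 genes were higher with no fold threshold (5288) and 4671 lower with at least 10 counts (8063); the sum of IFS1 and IFS2 gave -0.41, opposite in sign to IFS1 alone. In stage 9 against dried seeds, 1422 and 3306 genes were called with no low-count filter, 1117 and 2404 with all 11 libraries in 1 fit, and 0 and 0 at an adjusted p of 0.01 (edgeR), where 8179 had an unadjusted p under 0.05 and DESeq2 called 800 and 1567 at 0.05; leaving out a library gave 0 to 1967 and 0 to 4193 (713 and 1296), the 0 without either stage 9 replicate, and 0 to 2 of the 5 genes lower, likewise 0 at 0.01. The replicate block gave 2070 lower genes there and changed no call of the 5 genes in the 3 comparisons between replicated groups, where it was run. In stages 8.1 to 9, 6090 genes were higher with no fold threshold (3798), and 9421, 4031 and 3808 lower with no filter, at least 10 counts and an adjusted p of 0.01 (6098); IFS1 gave -0.21 (without stage 7.1) to 0.15 (without stage 7.3). The IFS2 to IFS1 difference was 0.23 with replicates averaged and -0.50 to 0.21 without single libraries, and the MYB176 ratio -3.26 and -3.93 to -3.02, its adjusted p reaching 0.0857. Scaling by library totals in place of size factors shifts every dried against fresh log2 change by -0.52, which brings IFS1 to 1.58-fold and CHS7 to 1.04-fold; 2 reference genes, added after seeing the data, shift it by 0.18. The stage of the highest level stayed the same for all 5 genes under these scalings and TMM. The cause of these shifts was not tested. MYB176 rests on as few as 32 counts.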
